A study of Rattus norvegicus with 15 samples.

Results

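Caspases are cysteine proteases that cut other proteins after aspartate and carry out apoptosis or trigger inflammatory cell death. Casp8 starts the route from death receptors at the cell surface, Casp9 starts the route from damaged mitochondria on the Apaf1 platform, Casp2 is a stress-activated initiator, and Casp6 is an executioner that cleaves lamins. Casp4, known as caspase-11 in rodents, senses intracellular lipopolysaccharide and cleaves gasdermin D, and Casp12 is a relative of the inflammatory caspases that has been linked to endoplasmic reticulum stress. Cflar encodes c-FLIP, a Casp8 relative without protease activity that sits beside Casp8 at death receptors and restrains or tunes it. In the transplanted kidney these genes are read both in tubular cells, which die after ischaemia or T-cell attack, and in infiltrating leukocytes, which use the same proteases.

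The expression of these 7 genes was followed in 15 rat kidneys on Affymetrix rat whole-genome expression arrays. All probe sets that carry 1 of the 7 names as their only gene symbol were taken, which gave 12 of the 31099 probe sets on the array. Casp9 has 3 probe sets, Casp8, Cflar and Casp2 have 2 each, and Casp6, Casp4 and Casp12 have 1 each.

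Each group held 5 kidneys of male rats aged 10 to 12 weeks. The control group (ctr) is native, unoperated kidneys of Lewis-Brown-Norway (LBN) rats, so no sham operation is included. They may be the second kidney of graft donors, and the sources used here do not give which kidneys share a donor. In the syngeneic group (sTX) donor and recipient were both LBN, and in the allogeneic or acute group (aTX) the recipient of the LBN kidney was a Lewis (LEW) rat, a strain pair that leads to acute rejection. Both graft recipients lost their own kidneys before grafting, and grafts were removed on day 4. The source names of the samples give other strains (Lewis donors in both graft groups), and a treatment field gives sTX 4 and 5 as allogeneic although their titles say syngeneic, so results are also given without these arrays where a call changes. RNA came from whole kidneys, so more cells of a type and more RNA per cell cannot be told apart.

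The deposited values are MAS5 signals on a linear scale, with a median of 24.3 to 30 per array. Levels below are these signals as mean ± SD of the 5 kidneys. Folds are geometric mean ratios, taken from 1 limma fit of log2 signals to 31042 probe sets. A probe set is said to rise or fall when its Benjamini-Hochberg adjusted p over all of these is below 0.05. Levels of different probe sets are not compared, because each responds to its RNA with its own strength. Runs of washing and staining were inferred from the clock time of the Hybridize Date entry in each array's instrument record. That entry is named for hybridization, and reading it as washing and staining is an assumption. The runs were split at gaps between the clock times, and the date was not used, so arrays of different days could share a run. This gave 2 runs, the first with all ctr arrays and aTX 2, 3 and 4, the second with all sTX arrays and aTX 1 and 5. The 3′/5′ signal ratio of actin, a measure of RNA integrity, was 1.54 to 1.98 in ctr, 1.45 to 1.61 in sTX and 1.14 to 1.29 in aTX, and its part in the results was not tested. Proximal tubule markers, as the summed signal of 6 genes, ran from 5028 to 15436 over all arrays.

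Allogeneic grafts carried more RNA of most caspases than native kidneys. Of the 12 probe sets 7 rose, on the 5 genes Casp12, Casp4, Casp8, Casp2 and Casp9, and 1 probe set of Cflar fell. Over all probe sets tested 42.4% were called, 20.2% higher and 22.2% lower. The folds ran from 9.76 for Casp12 to 1.36 for Casp9. The 7 probe sets that rose had every aTX array above every ctr array, a pattern seen in 16.4% of all probe sets, and the Cflar probe set had every aTX array below, as did 16.9% (33.2% in either direction). The median log2 change was 0.75 over the 12 probe sets and -0.07 over all.

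Syngeneic grafts showed smaller rises of the same 5 genes and a larger fall of Cflar. Here 6 probe sets rose and 1 fell, against 11.4% and 6.32% of all probe sets, 17.7% together. The groups were separate for 5 of the rises (8.44% of all probe sets) and for the fall (4.72%, or 13.2% in either direction). The folds of the 6 ran from 2.40 for Casp12 to 1.18 for Casp9. Of these 6 rises, 2 passed when the wash run was added to the fit as a block, and 3 had an unadjusted p below the 0.001 that the methods used with a plain t-test. No run holds both sTX and ctr, so this blocked comparison rests on the difference between aTX arrays of both runs. Over all probe sets the median log2 change in this comparison was 0.09, and -0.11 after each array was centred on its median. That centring moved the calls of the whole array from 3539 higher and 1961 lower to 1812 higher and 4724 lower, while 5 of the 12 probe sets still rose and 1 fell.

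Set against syngeneic grafts, allogeneic grafts were higher on 7 of the 12 probe sets and lower on 0 by limma, and equally by the methods' t-test after Benjamini-Hochberg. At the methods' own threshold of 0.001, unadjusted, 5 were higher, without Casp2 1367890_at and Casp9 1368652_at. Of all probe sets 36.0% were called, with 13.9% higher and 22.1% lower. The groups were separate for 6 of the 7, against 12.1% of all probe sets in this direction, 17.0% in the other and 29.1% in either. With median centring 5427 were higher and 5242 lower in place of 4327 and 6857. The folds ran from 4.56 for Casp4 to 1.15 for Casp9, and Cflar was among the probe sets that were higher. All 3 comparisons share groups of arrays, so the lists of calls are not independent.

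**Figure D1:**
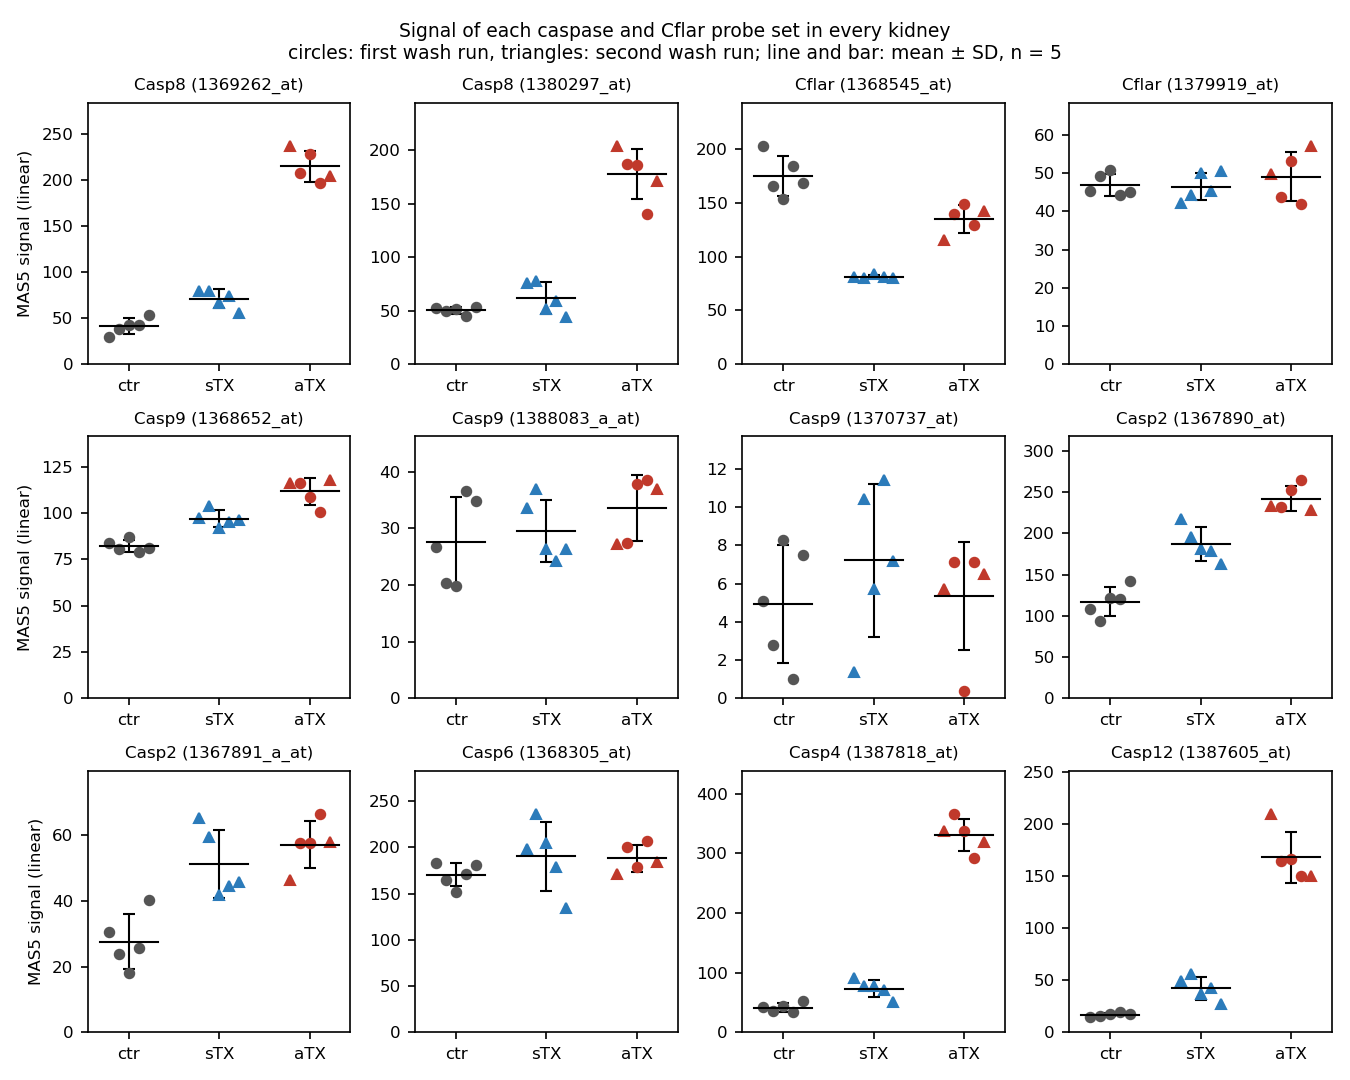
MAS5 signal (linear axis from 0) of the 12 caspase and Cflar probe sets in each of 15 kidneys by group, with the mean and SD of 5 kidneys and the wash run as the shape of the point. Casp8, Casp4 and Casp12 stand highest in aTX in every kidney, Cflar 1368545_at lies lowest in sTX, and the groups overlap for Casp6.

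Casp8, the initiator at death receptors, rose on both probe sets in rejection. On probe set 1369262_at the signals of ctr 1 to 5 were 29.4, 38.1, 42.7, 42.3 and 53.4, those of sTX 1 to 5 were 79.5, 79.8, 66.5, 74.1 and 55.9, and those of aTX 1 to 5 were 236.5, 207.6, 228.5, 196.4 and 204.6. The 3 groups did not overlap, with ctr lowest and aTX highest. The mean was 41.2 ± 8.68 in ctr, 71.2 ± 10.1 in sTX and 215 ± 17.0 in aTX. Rejecting grafts were 5.30-fold above native kidneys (95% confidence interval 4.36 to 6.43, adjusted p = 1.09e-11) and 3.04-fold above syngeneic grafts (adjusted p = 9.2e-09). Syngeneic grafts were 1.74-fold above native kidneys (adjusted p = 0.000242), which became adjusted p = 0.115 with the wash run as a block.

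The other Casp8 probe set, 1380297_at, separated rejection but not syngeneic grafting. It gave 50.8 ± 3.24 in ctr, 61.8 ± 14.8 in sTX and 178 ± 23.7 in aTX, and the sTX arrays, from 44.2 to 77.9, overlapped the ctr arrays, from 45.5 to 53.5. The rise was 3.48-fold in aTX against ctr (adjusted p = 1.55e-09) and 2.93-fold in aTX against sTX (adjusted p = 2.77e-08). In sTX against ctr it was 1.19-fold with an interval from 0.970 to 1.46 (adjusted p = 0.258). Both probe sets thus place the larger step between the syngeneic and the rejecting graft, and they differ on whether syngeneic grafting alone raised Casp8.

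Cflar, the decoy relative of Casp8, moved the other way on its brighter probe set. On 1368545_at the signals of ctr 1 to 5 were 202.3, 165.7, 153.2, 183.7 and 168.5, those of sTX 1 to 5 were 81, 80.5, 84, 80.7 and 80.4, and those of aTX 1 to 5 were 115.4, 139.7, 148.6, 129.6 and 142.5. The groups did not overlap, but their order was sTX, aTX, ctr from low to high. The coefficient of variation of the 5 syngeneic grafts was 1.86%, against 10.8% in ctr and 9.62% in aTX. Cflar was 2.14-fold lower in sTX than in ctr (174.7 ± 18.9 to 81.3 ± 1.52, adjusted p = 2.99e-08, adjusted p = 0.000865 with the wash run as a block). In aTX it was 1.29-fold lower than in ctr (135 ± 13, adjusted p = 0.00134) and 1.66-fold higher than in sTX (adjusted p = 9.46e-07). The methods' t-test gave an unadjusted p of 0.00437 for aTX against ctr, which misses their threshold of 0.001.

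The other Cflar probe set did not show this pattern. On 1379919_at the means were 46.9 ± 2.84, 46.4 ± 3.62 and 49.0 ± 6.37 in ctr, sTX and aTX, and all groups overlapped. Its log2 change was -0.02 in sTX against ctr with an interval from -0.26 to 0.23, which does not reach the -1.10 of the first probe set. Over the 15 arrays the log2 signals of both probe sets had a Pearson correlation of 0.092, so the fall of Cflar rests on 1 probe set. Which transcripts each probe set reads was not analysed here.

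**Figure D2:**
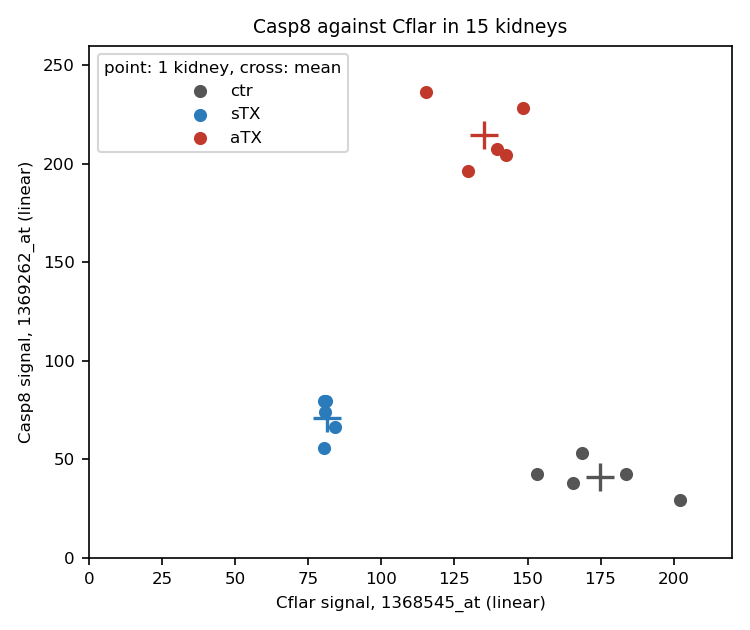
Signal of Casp8 (1369262_at, vertical axis) against Cflar (1368545_at, horizontal axis) in 15 kidneys, both linear from 0, with a cross at each group mean. Native kidneys sit at high Cflar and low Casp8, syngeneic grafts at Cflar 80.4 to 84 with Casp8 55.9 to 79.8, and rejecting grafts at Casp8 196.4 to 236.5.

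Cflar and Casp8 are direct neighbours on chromosome 9 in the reference assembly GRCr8, where their annotated spans overlap by 118 bases. Casp4 and Casp12 are direct neighbours on chromosome 8, with 0 bases of overlap. Promoter sequences, here the 250 bases before the start of the gene, were found in RefSeq for 5 of the 7 genes (Casp2, Casp6, Casp9, Casp12 and Cflar). Those of Casp12, with the largest limma fold in aTX against ctr, and Cflar, the gene that fell, are shown because these moved in opposite directions. Both are given 5′ to 3′ on the + strand of GRCr8, Casp12 at chr8:10926938-10927187 and Cflar at chr9:67679299-67679548, with matches to searched motifs in capitals.
Casp12: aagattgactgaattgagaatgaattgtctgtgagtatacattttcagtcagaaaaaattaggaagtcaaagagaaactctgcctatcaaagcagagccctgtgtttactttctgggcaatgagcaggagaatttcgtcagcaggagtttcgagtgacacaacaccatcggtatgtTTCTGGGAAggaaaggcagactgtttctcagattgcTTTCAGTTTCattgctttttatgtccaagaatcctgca
Cflar: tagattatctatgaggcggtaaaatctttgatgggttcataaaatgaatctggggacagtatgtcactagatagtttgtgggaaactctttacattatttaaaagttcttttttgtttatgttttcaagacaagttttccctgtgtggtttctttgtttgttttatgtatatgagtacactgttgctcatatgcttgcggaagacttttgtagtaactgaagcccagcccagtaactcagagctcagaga
The searched motifs were the interferon response element, with 2 GAAA repeats spaced by any 2 bases, the STAT site, with TTC and GAA spaced by any 3 bases, and the kappaB consensus, each on both strands and with no overlap between the matches found. In Casp12 the first matched on the minus strand from 38 to 29 bases before the start (TTTCAGTTTC as read above) and the second from 74 to 66 bases before it (TTCTGGGAA). The other 4 promoters held 0 matches. Of 33469 rat promoter windows of this length 3.41% held the first motif, 7.67% the second and 6.33% the kappaB consensus. A match describes these letters and does not show that a factor binds there.

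Casp4, the lipopolysaccharide-sensing caspase, rose in both kinds of graft and most in rejection. On probe set 1387818_at the signals of ctr 1 to 5 were 42.3, 35.3, 44, 33.7 and 53.3, those of sTX 1 to 5 were 90.4, 77.1, 78.2, 71.9 and 50.3, and those of aTX 1 to 5 were 337.9, 365.9, 338.4, 293 and 318.5. Every rejecting graft lay above every other kidney, while sTX 5 lay within the range of the controls. The mean went from 41.7 ± 7.83 in ctr to 73.6 ± 14.7 in sTX and 331 ± 27.0 in aTX. The rise was 8.02-fold in aTX against ctr (interval 6.54 to 9.82, adjusted p = 1e-12) and 4.56-fold in aTX against sTX (adjusted p = 2.02e-10). In sTX against ctr it was 1.76-fold (adjusted p = 0.000338), with adjusted p = 0.0891 under the wash run block.

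Casp12 had the largest fold of the 7 genes in rejection against native kidneys. On probe set 1387605_at the signals of ctr 1 to 5 were 15.2, 15.5, 17.7, 19.6 and 17.9, those of sTX 1 to 5 were 49.2, 55.8, 36.6, 43 and 27, and those of aTX 1 to 5 were 209.8, 164.4, 166.5, 150.1 and 150.5. The groups were separate, in the order ctr, sTX, aTX. The control signals lie below the array median, where folds are less certain in size. Casp12 rose 9.76-fold in aTX against ctr (17.2 ± 1.83 to 168 ± 24.4, interval 7.67 to 12.4, adjusted p = 2.83e-12) and 4.07-fold in aTX against sTX (adjusted p = 7.21e-09). In sTX it reached 42.3 ± 11.1, which is 2.40-fold over ctr (adjusted p = 1.88e-05, adjusted p = 0.0484 with the wash run as a block).

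Casp2, the stress-activated initiator, differed from these genes in the size of its steps. On probe set 1367890_at the signals of ctr 1 to 5 were 108.7, 94, 121.5, 120.7 and 141.7, those of sTX 1 to 5 were 217.1, 195.3, 180.8, 179.2 and 162.7, and those of aTX 1 to 5 were 232.7, 232.4, 252.4, 264.5 and 228.6. The groups did not overlap, and on the deposited scaling most of the rise was already present in syngeneic grafts. With median centring the steps were alike, with a log2 change of 0.48 in sTX against ctr and 0.50 in aTX against sTX. Casp2 rose 1.6-fold in sTX against ctr (117 ± 17.6 to 187 ± 20.4, adjusted p = 5.32e-05, adjusted p = 0.0154 under the wash run block) and 2.08-fold in aTX against ctr (242 ± 15.6, adjusted p = 2.07e-08). The step from sTX to aTX was 1.30-fold (adjusted p = 0.00449), but its call ended with the wash run as a block (adjusted p = 0.0926) and without sTX 4 and 5 (adjusted p = 0.0567).

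The weaker Casp2 probe set, 1367891_a_at, gave the same order of means, 27.5 ± 8.30 in ctr, 51.2 ± 10.3 in sTX and 57.1 ± 7.15 in aTX. It rose 1.90-fold in sTX (adjusted p = 0.00153, or adjusted p = 0.072 under the wash run block) and 2.13-fold in aTX against ctr (adjusted p = 6.3e-05). The grafts overlapped, and aTX was 1.13-fold above sTX with an interval from 0.857 to 1.48 (adjusted p = 0.537).

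Casp9, the initiator of the mitochondrial route, changed little. Its brightest probe set, 1368652_at, was 82.3 ± 3.17 in ctr, from 79.1 to 87, then 97.0 ± 4.45 in sTX, from 91.9 to 104, and 112 ± 7.30 in aTX, from 100.4 to 117.8. Both graft groups lay above all controls and overlapped each other. The rise in aTX against ctr was 1.36-fold (adjusted p = 6.31e-05). The smaller differences, 1.18-fold in sTX against ctr (adjusted p = 0.0352) and 1.15-fold in aTX against sTX (adjusted p = 0.0413), each lost their call when any of 8 of the 10 arrays compared was left out. The exceptions were ctr 3 and sTX 3 in the first and sTX 2 and aTX 4 in the second, and adjusted p reached 0.0889 and 0.0956. Without both sTX 4 and 5 these calls ended too (adjusted p = 0.0792 and 0.131). With median centring the difference of sTX from ctr had a log2 change of 0.04 (adjusted p = 0.788).

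The other Casp9 probe sets were dimmer and gave no call. Signals on 1388083_a_at were 19.8 to 38.5 over all arrays, with means of 27.6 ± 7.87, 29.5 ± 5.44 and 33.6 ± 5.78 in ctr, sTX and aTX. Signals on 1370737_at were 0.40 to 11.4, far below the array medians, and its interval for aTX against ctr spanned folds from 0.297 to 3.15. This probe set does not measure Casp9 with useful precision here.

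Casp6, the executioner that cleaves lamins, did not pass in any comparison. On probe set 1368305_at the signals ran from 151.8 to 182.6 in ctr (median 170.7), from 134.7 to 235.7 in sTX (median 198.3) and from 171 to 206.5 in aTX (median 183.7). All groups overlapped, and sTX 5 was the lowest of the 15 kidneys. The fold was 1.10 in aTX against ctr (interval 0.938 to 1.30, adjusted p = 0.349), 1.10 in sTX against ctr (interval 0.937 to 1.30, adjusted p = 0.459) and 1.0 in aTX against sTX (interval 0.851 to 1.18, adjusted p = 0.991). Without sTX 4 and 5 it was called higher in sTX against ctr, with a log2 change of 0.32 and adjusted p = 0.0237.

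**Figure D3:**
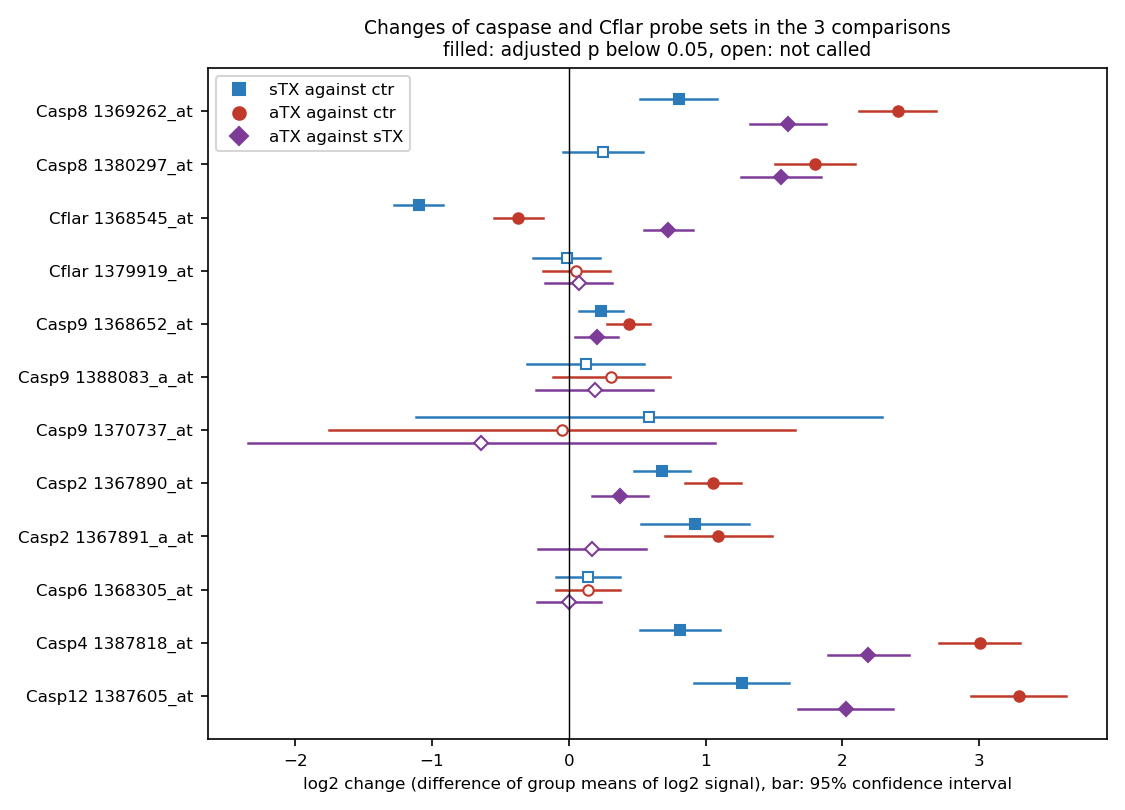
Log2 change with 95% confidence interval of the 12 probe sets in the 3 comparisons, filled where adjusted p is below 0.05. Casp12, Casp4 and Casp8 show the largest rises in aTX against ctr, at 3.29, 3.0 and 2.41, Cflar 1368545_at falls most in sTX against ctr, at -1.10, and Casp6 is open in all 3.

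Genes that act before and after these caspases were read from a list of 48 genes of death signalling, of which 40 were measured. In aTX against ctr 29 of the 40 were higher and 2 lower, with a median log2 change of 1.08. In sTX against ctr 18 were higher and 4 lower, with a median of 0.29, while the wash run block left 3 higher and 0 lower. Median centring gave 11 higher and 8 lower in that comparison, so its balance follows the scaling. In aTX against sTX 29 were higher and 2 lower, with a median of 0.74. The background shares given above are for all probe sets, dim ones included, while these genes were read at their brightest probe set. The filter at a signal of 50 left 13875 probe sets. Of these 5071 were higher and 5240 lower in aTX against ctr. In sTX against ctr the counts were 3187 and 2063, and in aTX against sTX 3995 and 5229.

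Upstream of Casp8, all 5 measured death ligands and receptors were higher in aTX than in ctr and than in sTX. The death receptor Fas was 13.7 ± 4.24 in ctr, 28.9 ± 7.96 in sTX and 133 ± 11.6 in aTX. It was 10.1-fold above ctr in aTX (adjusted p = 7.6e-11). Its mean in ctr lies below the array medians, where folds are less certain in size. With an offset of 16 its log2 change in aTX against ctr was 2.33 in place of 3.33. The adaptor Fadd, which joins Fas to Casp8, was 46.8 ± 4.92, 65.4 ± 6.27 and 109 ± 11.9 (2.32-fold, adjusted p = 9.36e-09). In sTX against ctr Fas was 2.13-fold and Fadd 1.40-fold higher (adjusted p = 0.000983 and 0.00307), and the wash run block ended both calls (adjusted p = 0.161 and 0.172). Bid, which Casp8 cleaves to reach mitochondria, went from 140 ± 13.8 in ctr and 129 ± 9.81 in sTX to 462 ± 12.0 in aTX (3.32-fold over ctr, adjusted p = 3.54e-13). With median centring Bid was lower in sTX than in ctr (log2 change -0.31, adjusted p = 0.00501), which the deposited scaling did not call (adjusted p = 0.339).

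On the mitochondrial route, the platform Apaf1 rose while Casp9 itself rose little. Apaf1 was 31.6 ± 4.10 in ctr, 51.2 ± 9.94 in sTX and 147 ± 18.5 in aTX, 4.65-fold above ctr (adjusted p = 6.36e-11). Its 1.6-fold rise in sTX (adjusted p = 0.00157) had adjusted p = 0.238 under the wash run block. Of 5 measured genes of the mitochondrial route 3 were higher and 1 lower in aTX than in ctr. The lower one was Aifm1, a flavoprotein of the mitochondrial intermembrane space (1.29-fold lower, adjusted p = 7.6e-05).

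Inhibitors of apoptosis were divided. Birc3, an inhibitor of apoptosis protein of the tumour necrosis factor receptor complex, was 24.1 ± 7.66 in ctr, 46.3 ± 10.3 in sTX and 412 ± 62.5 in aTX (17.7-fold over ctr, adjusted p = 9.92e-13). Xiap, which binds active caspases directly, was 182 ± 18.3, 171 ± 33.7 and 176 ± 31.1 and was not called in any comparison. Of the 7 inhibitors, which include members of the Bcl2 family, 4 were higher in aTX than in ctr (Birc2, Birc3, Mcl1 and Bcl2a1). Among these Bcl2a1 rose 55.3-fold, from 23.1 ± 14.3 in ctr to 1110 ± 51.5 in aTX (adjusted p = 4.61e-12). Lower was 1, Bcl2l1 (1.31-fold, adjusted p = 0.00428).

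All 5 measured genes of necroptosis and pyroptosis (Ripk3, Gsdmd, Pycard, Il1b and Il18) were higher in aTX than in ctr and than in sTX. Casp1, the caspase of the inflammasome, was 46.1 ± 5.11 in ctr, 96.7 ± 11.5 in sTX and 572 ± 31.9 in aTX, 12.5-fold over ctr (adjusted p = 1.24e-15), and kept its call in sTX against ctr under the wash run block (adjusted p = 0.000924). Gsdmd, the pore protein that Casp4 and Casp1 cleave, was 26.4 ± 3.04, 52.5 ± 14.2 and 106 ± 13.4 (4.0-fold in aTX over ctr, adjusted p = 1.52e-09). The necroptosis kinase Ripk3, which Casp8 holds in check, was 31.8 ± 5.45, 70.7 ± 21.3 and 547 ± 33.6 (17.3-fold in aTX over ctr, adjusted p = 6.54e-14).

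Casp12 has been linked to endoplasmic reticulum stress, and 4 genes of that response were measured. In sTX 0 were higher than in ctr and 3 were lower (Ddit3, Atf4 and Xbp1, adjusted p = 0.0346, 0.043 and 0.0284). None of these calls held under the wash run block. In aTX against ctr the chaperone Hspa5 was 1.49-fold and the transcription factor Atf4 1.29-fold higher (adjusted p = 0.000579 and 0.00189). In aTX against sTX all 4 were higher, by 1.22-fold to 1.69-fold. These are 4 transcripts read in whole kidneys, and a part of this stress in the Casp12 signal was not tested.

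**Figure D4:**
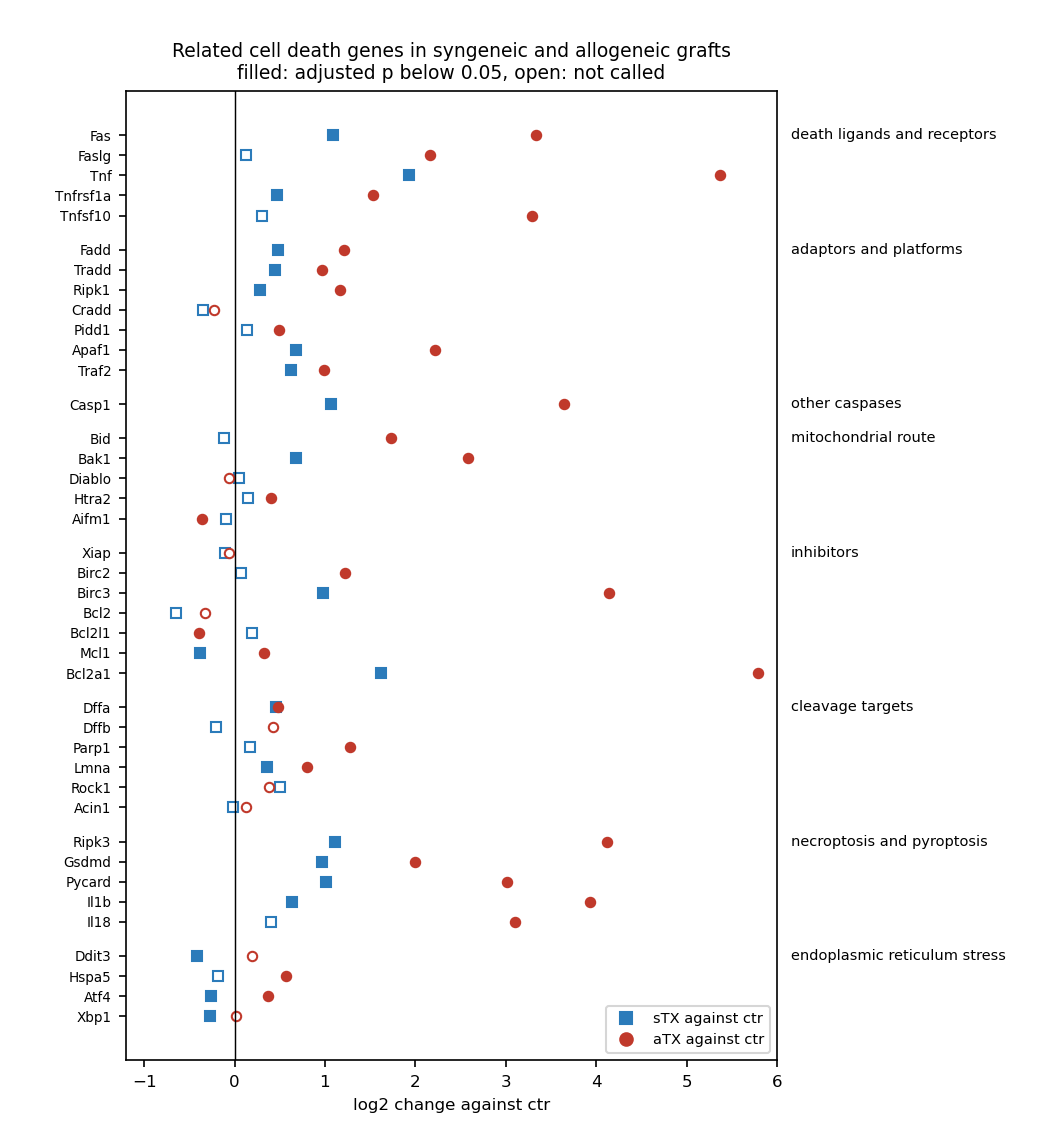
Log2 change against ctr of the 40 measured death genes in syngeneic (squares) and allogeneic grafts (circles), grouped by role and filled where adjusted p is below 0.05. All 5 ligands and receptors and all 5 genes of necroptosis and pyroptosis are filled in aTX, while Xiap lies near 0 in both.

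In aTX against ctr, all measured markers of T cells, macrophages and neutrophils rose and all those of tubules, podocytes and endothelium fell. In sTX against ctr, where caspases also rose, 5 of 6 macrophage, 2 of 3 neutrophil and 1 of 6 T cell markers were higher and 2 of 6 proximal tubule markers lower, while thick limb and collecting duct markers were divided, with 2 higher and 2 lower. The summed signal of 6 macrophage markers was 346 to 411 in ctr, 635 to 957 in sTX and 3266 to 3522 in aTX. All 6 were higher in aTX than in ctr. In aTX against sTX 5 were higher and 1, Adgre1, was lower (1.40-fold, adjusted p = 0.00305). The sum of 6 T cell markers was 55.2 to 110 in ctr, 80.1 to 186 in sTX and 1350 to 2166 in aTX. The sum of 3 neutrophil markers was 18.3 to 32.3, 32.2 to 124 and 258 to 568. The sum of 2 B cell markers was low throughout, at 10.1 to 14.3 in ctr, 3.3 to 17.2 in sTX and 11.4 to 24.4 in aTX, and 1 of them, Ms4a1, was higher in aTX than in sTX (2.92-fold, adjusted p = 0.0174). Proximal tubule markers summed to 11683 to 15436 in ctr, 10560 to 12010 in sTX and 5028 to 6297 in aTX. Within the syngeneic group, sTX 5 had the lowest macrophage sum. It was also the lowest sTX kidney on both Casp8 probe sets, Casp4, Casp12, Casp6 and the brighter probe sets of Casp2 and Cflar. On the weaker Casp2 probe set, the other Cflar probe set and all Casp9 probe sets another syngeneic graft was lowest. Among syngeneic grafts sTX 5 had the lowest neutrophil sum too (32.2), but not the lowest T cell sum (88.9). Its sums of proximal tubule (12010), thick limb and collecting duct (11370) and podocyte markers (684) were the highest of that group. The highest macrophage sum was that of sTX 1, which was also highest on Casp4 and both Casp2 probe sets. On both Casp8 probe sets, Casp12 and Casp6 the highest was sTX 2, with a macrophage sum of 752. The part of infiltrating cells in the caspase signals was not tested.

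The genes whose log2 signals ran most like each member over the 15 arrays differed between members. For Casp8 these were Clec4a1, a C-type lectin of myeloid cells, Eed and Pycard, with Pearson correlations of 0.991 to 0.994. For Casp4 they were Ppp1r18, Icam1 and the lipopolysaccharide co-receptor Cd14, at 0.992 to 0.993, and for Casp12 Ly96, which completes the lipopolysaccharide receptor, Rab13 and Gnb1, at 0.991 to 0.992. Casp2 ran most like Ube2c and H2ax, genes of mitosis and of chromatin, and Fam89b, at 0.965 to 0.969. Casp9 ran most like Bnip1, Nop58 and Rcn1, at 0.962 to 0.975. Cflar ran most like Pigr, the transporter of polymeric immunoglobulin, the mRNA decay factor Zfp36 and Rin2, at 0.933 to 0.956, and the best match of Casp6 reached 0.77. These values describe likeness among 7363 candidate probe sets (mean signal 100 or more) and are set mostly by the differences between the 3 groups.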

How the data were processed

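Total RNA of 15 rat kidneys was hybridized by the authors to 1 Affymetrix rat array each. Signal intensities were condensed by the authors with MAS5 and deposited on a linear scale. The methods name a higher common mean, while the deposited intensities average 100 when 2% of probe sets are trimmed at each end. Instrument records of the arrays were read only for the clock time under Hybridize Date, taken as that of washing and staining.

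Of 31099 probe sets, 57 Affymetrix controls were set aside. Gene names came from a platform annotation table, which gives 20826 probe sets 1 symbol, 436 several and 9780 none, and were updated by gene number. The 54 signals of 0 were set to 0.05, and limma 3.58.1, run in R 4.3.3, fitted the log2 signals of all 15 arrays at once, with an intensity trend in its moderated variances. The scripts were tested on simulated data. Promoters came from RefSeq (GRCr8), and plots used matplotlib 3.10.9. With 5 arrays per group the number of arrays limits the precision.

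Every member probe set is named. Of the related genes, 9 are named with values by rule, and some others are named where a count is 5 or fewer. Related genes and markers were read at the probe set with the highest mean log2 signal, and the 3 most similar genes of each member are named. The members and lists were chosen with earlier results of these data known. Numbers in the titles were not taken to pair kidneys, because 0 of the 15 same-numbered pairs correlated above 0.1 in their deviations from the group means. Alternatives were median centring, quantile normalization, an offset of 16, a floor of 1, a filter at a signal of 50 in the highest group mean, no intensity trend, the methods' t-test, blocks for wash run and replicate number, single wash runs, and arrays left out.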

Additional observations from a re-analysis of the deposited data

Results flagged for a closer look

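In 36 groups of 5 kidneys (12 probe sets in 3 groups), 2 had a kidney far from the others on the log2 scale, and chance gives about 1 in 20. On Cflar probe set 1368545_at the signal of 84 in sTX 3 stood apart from 80.4 to 81 in the other syngeneic grafts, a gap that is small because this group is so narrow. On Casp9 probe set 1370737_at aTX 3 was lowest with a signal of 0.40 against 5.7 to 7.1 in the other rejecting grafts, and without aTX 3 the log2 change in aTX against ctr is 0.76 in place of -0.05.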

How the results depend on the processing

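Of the 36 log2 changes of the 12 probe sets in 3 comparisons 22 were called, and 0 of these reversed under any alternative. All 22 kept their call with an offset of 16, a floor of 1, the filter on dim probe sets, no intensity trend and the methods' t-test after Benjamini-Hochberg. Median centring kept 21, quantile normalization 20, the wash run block 17, the replicate block 20, and the fit without sTX 4 and 5 kept 19 and added Casp6. Within 1 wash run 13 of 15 were kept. Leaving out 1 array kept 20 to 22, and the calls lost were those of Casp9 1368652_at in sTX against ctr and in aTX against sTX. The replicate block ended the calls of Casp9 1368652_at in sTX against ctr and in aTX against sTX (adjusted p = 0.0537 and 0.0589) and no other. The wash run block took the count of probe sets higher in sTX against ctr from 6 to 2. At the methods' unadjusted p below 0.001, 16 of the 22 calls were kept, the fewest of the settings run on all 36 changes. The count higher in sTX against ctr was then 3, that in aTX against sTX went from 7 to 5 (without Casp2 1367890_at, at 0.00159, and Casp9 1368652_at, at 0.00458), and the count lower in aTX against ctr was 0.

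Uncalled log2 changes that turned sign were all near 0 or dim. Cflar 1379919_at in aTX against ctr was -0.019 with median centring, -0.061 with quantiles, -0.029 with the wash run block and in 1 run, and -0.00067 to 0.11 without single arrays. In sTX against ctr it was -0.047 to 0.017 without single arrays. Casp9 1370737_at in aTX against ctr was 0.068 with quantiles, 0.030 with the offset, 0.21 with the floor of 1 and -0.54 to 0.76 without single arrays. With the wash run block it was -0.57 in sTX against ctr and 0.059 in aTX against sTX (0.059 in 1 run, -1.15 to 0.17 without single arrays). Casp9 1388083_a_at in sTX against ctr was -0.072 with median centring and -0.081 with quantiles. Casp6 1368305_at was -0.054 in sTX against ctr with median centring, and in aTX against sTX -0.026 with quantiles, -0.079 with the wash run block and in 1 run, -0.18 without sTX 4 and 5 and -0.12 to 0.085 without single arrays. Xiap in aTX against sTX was -0.015 without sTX 4 and 5 and -0.026 to 0.16 without single arrays. The cause was not tested.

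Counts over all probe sets in sTX against ctr moved by over 1.5 times with median centring, as given above, with the wash run block (713 higher and 255 lower) and at the methods' threshold (1329 and 716). That threshold also gave 3894 higher and 3808 lower in aTX against ctr, where limma gave 6268 and 6890, and 2838 and 3447 in aTX against sTX.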

Other observations

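With group means removed, the log2 signals of Casp12 and Casp8 still ran together over the 15 arrays, with a Pearson correlation of 0.735 for Casp8 1369262_at and 0.81 for Casp8 1380297_at. For Casp4 these were 0.592 and 0.715 with Casp8 and 0.563 with Casp12. Such values were not particular to these genes. Casp9 1388083_a_at had 0.747 with Casp2 1367891_a_at, Casp8 1369262_at had 0.665 with Casp2 1367890_at, and Casp6 had 0.573 with Casp4. Casp8 1369262_at had 0.126 with Casp9 1368652_at. The probe sets of Cflar had -0.009 with each other. The arrays of a group share a wash run or are split between the runs, the points share array-wide scaling, and no test was made.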
